A study of Homo sapiens with 9 samples.

Results

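TWIST1, TWIST2, SNAI1, SNAI2, ZEB1 and ZEB2 encode the transcription factors best known for driving epithelial to mesenchymal transition. These 6 genes were taken by symbol from the 18970 genes counted in both tables of the series, in all 9 samples, and all 6 passed the filter on low counts. The samples were cranial neural crest cells (CNCCs) at passage 4, differentiated from H9 human embryonic stem cells in which both alleles of SOX9 carry an FKBP12-F36V, mNeonGreen and V5 tag at the carboxy terminus. The degrader dTAGV-1 recruits proteins with this tag to an E3 ligase, and SOX9 protein was depleted with 500 nM dTAGV-1 for 3h (3 samples) or 24h (3 samples) and compared with 0h samples (3 samples). The labels name dTAGV-1 at the same dose for the 0h samples, with a treatment time of 0h, and the protocol names DMSO as its vehicle control. All 3 times were sampled from 3 cultures. Their names, S9CC13_R6, S9CC47_R5 and S9CC47_R6, give the edited clone and the differentiation batch, so that the series rests on 2 clones, and batch R5 on 1 culture. All cells, 0h included, received 100 uM 4-thiouridine (4sU) for 2 h before harvest, starting 1 h after dTAGV-1 in the 3h samples and 22 h after it in the 24h samples. The comparison asks which genes change in newly made RNA when SOX9 is lost. None of the samples was an untagged culture given dTAGV-1. An effect of the compound itself or of time therefore cannot be told apart from SOX9 loss here.

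TWIST factors are basic helix-loop-helix (bHLH) proteins that bind E-boxes as dimers with E proteins such as TCF3, TCF4 and TCF12, while ID proteins take up E proteins and block such dimers. SNAI and ZEB factors are zinc-finger proteins that bind E-boxes of the form CACCTG or CAGGTG and repress epithelial genes such as CDH1 through corepressor complexes. In the neural crest these factors take part in the delamination and migration of the cells, and TWIST1 marks the mesenchymal state of crest cells in the face. SNAI proteins in particular are short-lived and are marked for destruction by F-box proteins.

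In SLAM-seq, 4sU built into new RNA is read as a T>C conversion, so that T>C reads count RNA made during the label and total reads count all RNA of a gene, both from 3′-end libraries. A library had between 16955633 and 28782678 total reads (median 21356401), of which between 3130673 and 5475800 were T>C reads (median 3957989). The 10 crest markers had summed levels of 3497 to 3570 CPM (reads scaled to equal library totals) at 0h, 3909 to 4049 at 3h and 4512 to 4986 at 24h, and all 10 reached 1 CPM in some library. The epithelial markers CDH1, EPCAM, KRT19, ESRP1 and GRHL2 were below 1 CPM in all libraries, and the 7 epithelial markers summed to 3.18 to 4.19 at 0h and 1.56 to 2.59 at 24h. The pluripotency markers POU5F1, NANOG and TDGF1 were below 1 CPM throughout, whereas LIN28A, DPPA4 and DNMT3B were not, and the 6 pluripotency genes together had 369 to 437 CPM at 0h and 304 to 328 at 24h. The 7 glial or melanocyte markers summed to 4.90 to 7.37 CPM at 0h and 2.90 to 4.07 at 24h, with SOX10, FABP7 and DCT below 1 CPM in all libraries, and the 5 neuron markers to 12.9 to 18.8 and 10.0 to 12.5. The 5 neural progenitor markers summed to at most 2.13 CPM in any library, with 0.885 to 1.08 at 0h and 1.32 to 2.07 at 24h. The muscle markers, each below 1 CPM in all libraries, summed to at most 0.0590 at 0h and to 0.0915 to 0.233 at 24h. The sums of all these marker sets thus did not overlap between 0h and 24h, and their part in the results was not tested. Total SOX9 mRNA, whose protein was the target, was higher at 3h (log2 0.79 ± 0.0797 SE) and 24h (1.15 ± 0.0831 SE) by the DESeq2 fit (adjusted p = 7.50e-20 and 4.48e-40), and mRNA does not check the loss of the protein.

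Promoter windows are shown because the 6 proteins bind E-boxes, so that their own promoters may hold the letters they recognise. The windows (RefSeq, GRCh38.p14) run from 250 bases before a transcript start to 50 after it, and capitals mark E-boxes (CANNTG, the same letters on either strand). TWIST2 had 1 window, ZEB2 had 1 and ZEB1 had 7, and no window was used for TWIST1, SNAI1 and SNAI2. This does not show that the reference holds no window for SNAI2. Shown are the windows of TWIST2, at chr2:238847835-238848134 on the plus strand, and of ZEB2, at chr2:144520070-144520369 on the minus strand, and the ZEB1 window with the most CACCTG or CAGGTG, at chr10:31318966-31319265 on the plus strand.
TWIST2: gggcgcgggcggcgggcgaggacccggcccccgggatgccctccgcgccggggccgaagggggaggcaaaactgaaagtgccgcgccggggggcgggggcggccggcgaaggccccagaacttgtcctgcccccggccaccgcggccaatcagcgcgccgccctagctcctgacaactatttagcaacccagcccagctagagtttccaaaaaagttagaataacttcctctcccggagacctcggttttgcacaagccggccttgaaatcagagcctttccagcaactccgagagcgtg
ZEB2: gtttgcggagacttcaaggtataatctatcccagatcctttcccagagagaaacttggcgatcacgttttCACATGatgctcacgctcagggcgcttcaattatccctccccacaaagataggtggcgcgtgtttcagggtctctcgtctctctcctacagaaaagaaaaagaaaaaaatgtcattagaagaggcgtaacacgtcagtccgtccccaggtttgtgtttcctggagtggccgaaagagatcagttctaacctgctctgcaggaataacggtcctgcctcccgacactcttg
ZEB1: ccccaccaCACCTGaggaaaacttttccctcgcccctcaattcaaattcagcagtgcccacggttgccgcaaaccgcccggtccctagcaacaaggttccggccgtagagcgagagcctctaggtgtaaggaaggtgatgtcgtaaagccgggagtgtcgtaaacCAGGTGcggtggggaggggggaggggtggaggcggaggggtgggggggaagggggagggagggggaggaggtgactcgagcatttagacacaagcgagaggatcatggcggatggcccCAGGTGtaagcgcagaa

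The TWIST2 window held 0 E-boxes, that of ZEB2 held 1, and the ZEB1 window shown held 3. The other 6 ZEB1 windows held 0 to 3, and of all 7 ZEB1 windows 4 held an E-box and 2 held CACCTG or CAGGTG. The 3 E-boxes of the ZEB1 window shown, which was chosen for them, all had the form CACCTG or CAGGTG, which is a subset of CANNTG. Over all 35116 windows of the table, 68.7% held CANNTG, 20.6% held CACCTG or CAGGTG, and 27.4% held ACAAT or ATTGT, a core that SOX proteins bind. The last core was not in any of the windows of these 3 genes. These are letters in a window and not measured binding.

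On hg38, TWIST1 lies on the minus strand of chr7:19020991-19117636, TWIST2 on the plus strand of chr2:238848032-238910534, SNAI1 on the plus strand of chr20:49982980-49988886, SNAI2 on the minus strand of chr8:48917598-48921740, ZEB1 on the plus strand of chr10:31318495-31529814 and ZEB2 on the minus strand of chr2:144364364-144521057. None of the annotated genes that overlap them, among them the antisense genes ZEB1-AS1 and ZEB2-AS1, lay over their last exons in the canonical transcripts, and none was in the count tables.

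TWIST1 and ZEB1 gave the most reads at 0h. Mean total CPM, not divided by gene length, were 235 ± 20.3 (SD, n = 3) for TWIST1, 130 ± 20.8 for ZEB1, 24.7 ± 2.19 for ZEB2, 16.4 ± 5.80 for TWIST2, 12.4 ± 0.850 for SNAI2 and 8.15 ± 5.76 for SNAI1. The ranges of TWIST2 (11.7 to 22.9) and SNAI2 (11.9 to 13.4) overlapped, as did those of SNAI2 and SNAI1 (4.78 to 14.8), so that the order of these 3 genes was within their spread. The libraries count 3′ ends, and how well each gene's 3′ end was captured was not measured. Raw total counts at 0h ran from 3814 to 6383 for TWIST1 and from 102 to 251 for SNAI1, the least precise of the 6.

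TWIST2 rose in newly made RNA by 3h and stayed higher at 24h. Its normalized T>C reads (counts divided by the DESeq2 size factor of the library) at 0h were 106 in S9CC13_R6, 158 in S9CC47_R5 and 95.2 in S9CC47_R6. At 3h they were 198, 243 and 168 in the same order of cultures, and at 24h they were 226, 245 and 191. All 3 cultures went up at both times, and no 3h or 24h sample overlapped with a 0h sample. Of the 12037 tested genes, 5.72% lay apart and higher in this way at 3h and 11.0% at 24h. The log2 fold change was 0.75 ± 0.189 (SE) at 3h, which passed the DESeq2 test (adjusted p = 0.00759), and 0.95 ± 0.194 at 24h (adjusted p = 8.94e-05). TWIST2 was the only one of the 6 genes called in T>C reads at 3h, where 1.79% of 12037 tested genes were called. Both differences share the 0h samples. As these are bulk libraries, more cells of a type with high TWIST2 and more TWIST2 RNA per cell cannot be told apart, and the same holds for the other genes. The call at 3h was lost in a fit of the 6 samples compared (log2 0.74, adjusted p = 0.133) and whenever a culture was left out, and that at 24h was lost without S9CC13_R6 (0.71, adjusted p = 1) or S9CC47_R6 (0.85, adjusted p = 0.690).

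**Figure D1:**
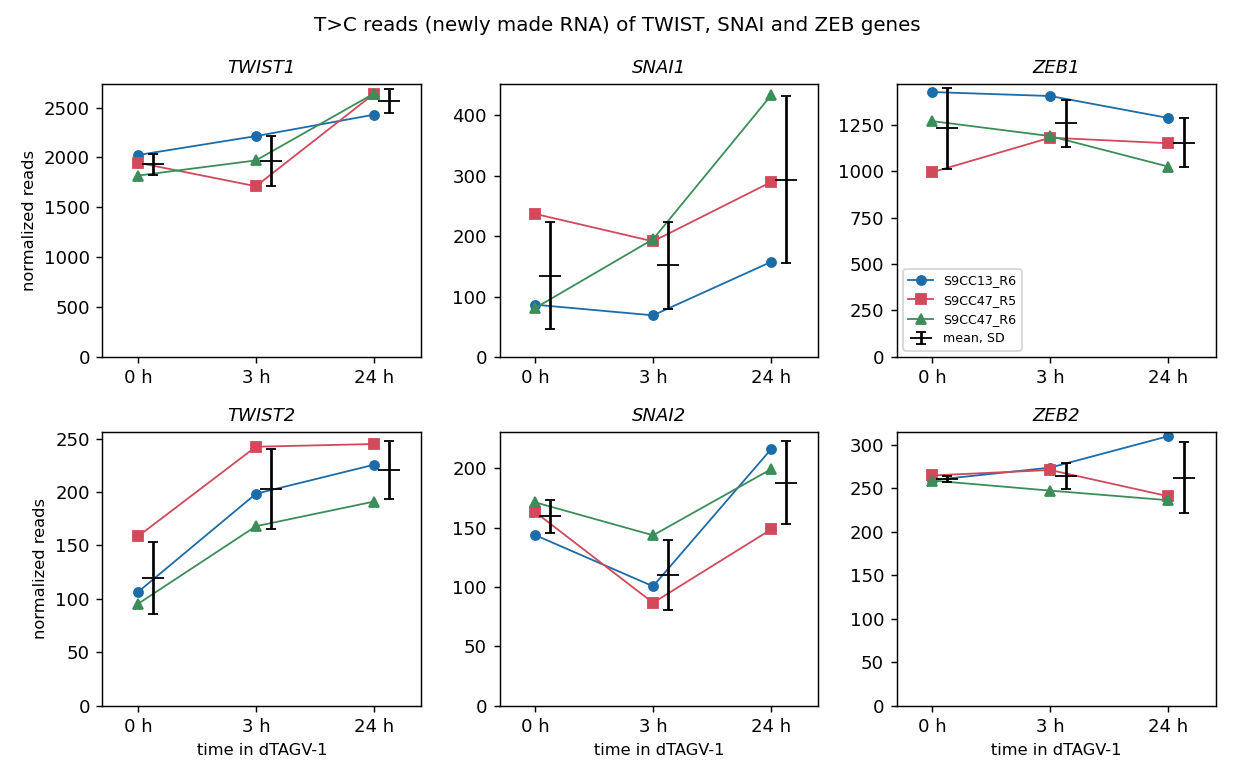
Normalized T>C reads (y axis, from 0) of the 6 genes against time in dTAGV-1 (x axis), with a line for each of the 3 cultures and the mean with its SD in black. TWIST2 was higher in all 3 cultures at 3h and 24h, TWIST1 only stood clear of the 0h samples at 24h, and SNAI1 ranged from 157 to 433 between cultures at 24h.

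The total reads of TWIST2 rose as well. They were 317, 498 and 260 normalized reads at 0h, 459, 637 and 471 at 3h and 621, 709 and 596 at 24h, again in the order S9CC13_R6, S9CC47_R5 and S9CC47_R6. The high 0h value of S9CC47_R5 reached above 2 of the 3h samples, whereas the 24h samples all lay above 0h. In total reads 13.6% of tested genes had all 24h samples above all 0h samples. In total reads TWIST2 was higher at 3h (log2 0.59 ± 0.140 SE, DESeq2 adjusted p = 0.00289), where 1.89% of 11710 tested genes were called, and 1.81-fold higher at 24h (log2 0.86 ± 0.145 SE, adjusted p = 2.27e-07), where 15.0% were called. Among the 832 genes called higher in total reads at 24h, with a median log2 fold change of 0.45, TWIST2 ranked 117 by size. Without S9CC13_R6 the value at 24h fell to 0.41 and the call was lost (adjusted p = 1.00), and the call at 3h was lost without S9CC13_R6 (0.54, adjusted p = 0.633) or S9CC47_R6 (0.44, adjusted p = 0.559).

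TWIST1, the paralogue with more reads, rose in newly made RNA at 24h. Normalized T>C reads were 2023, 1947 and 1817 at 0h, 2213, 1711 and 1970 at 3h and 2428, 2638 and 2641 at 24h. The 3h samples lay on both sides of the 0h samples, and all 24h samples lay above every sample of both earlier times. For 11.0% of tested genes all 24h samples lay above all 0h samples in T>C reads. The log2 fold change was 0.01 ± 0.0983 (SE) at 3h (adjusted p = 0.998) and 0.44 ± 0.102 at 24h, a 1.36-fold rise that passed the DESeq2 test (adjusted p = 0.00103). Between 3h and 24h TWIST1 also rose, by 0.44 ± 0.110 (adjusted p = 0.0137), and it was the 1 gene of the 6 called in that comparison, where 1.14% of all tested genes were called. Without S9CC13_R6 or S9CC47_R6 the call at 24h against 0h was lost (log2 0.41 and 0.34, adjusted p = 0.591 and 1.00), and the call at 24h against 3h was lost without any of the 3 cultures (log2 0.33 to 0.45).

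At 24h against 0h, 3 of the 6 genes were called in T>C reads, TWIST1, TWIST2 and SNAI1, all of them higher. Of all tested genes 4.98% were called in that comparison and 2.38% were called higher. The median log2 fold change of the 6 genes was 0.28, against 0.00147 over all tested genes. By size the 3 ranked 75 (TWIST2), 128 (SNAI1) and 233 (TWIST1) among the 287 genes called higher, whose median was 0.67.

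In total reads TWIST1 went from 5569, 4897 and 4945 at 0h to 5880, 4548 and 4984 at 3h and 6187, 6200 and 5952 at 24h. The 24h samples lay within 5952 to 6200 and above all others. For 13.6% of tested genes all 24h samples lay above all 0h samples in total reads. The rise was 1.24-fold at 24h (log2 0.31 ± 0.0843 SE, DESeq2 adjusted p = 0.00503) and 0.34 ± 0.0900 on the log2 scale between 3h and 24h (adjusted p = 0.00731), where 5.39% of tested genes were called and 2 of the 6, TWIST1 and SNAI2. Both calls were lost in the fit with no surrogate variable (log2 0.25 and 0.26, adjusted p = 0.15 and 0.168) and when any culture was left out. In total reads 7.11% of tested genes were called higher at 24h against 0h, and TWIST1, TWIST2 and SNAI1 were among them.

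**Figure D2:**
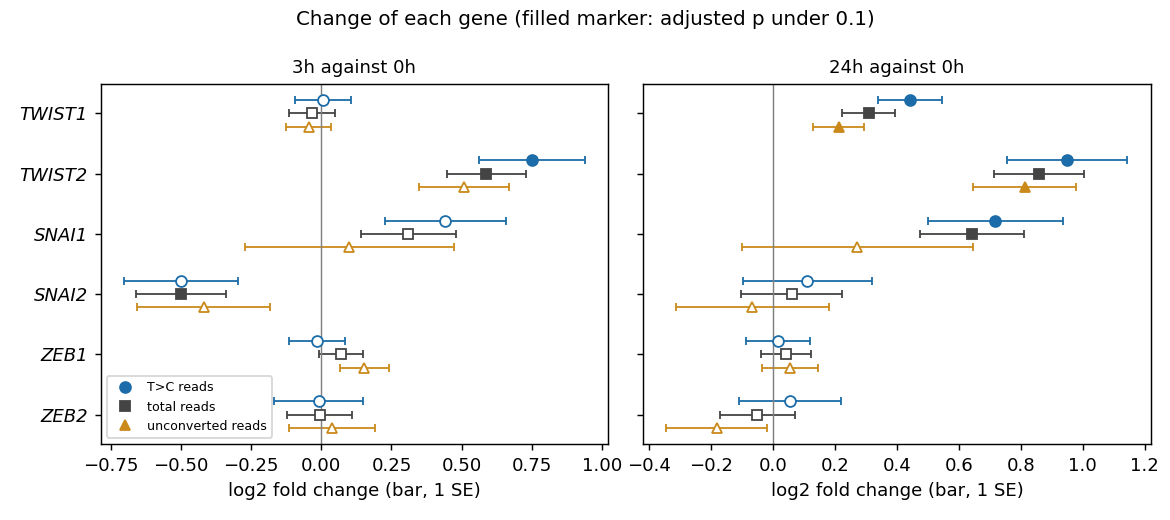
Log2 fold change (x axis) of each gene (y axis) at 3h and at 24h against the shared 0h samples, from the DESeq2 fits of T>C, total and unconverted reads, with bars of 1 SE and filled markers at an adjusted p under 0.1. TWIST2 passed in both T>C and total reads at each time, TWIST1 and SNAI1 at 24h, and SNAI2 in total reads at 3h, while no ZEB1 or ZEB2 marker is filled.

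SNAI1, the Snail repressor of epithelial genes, was higher at 24h than at 0h in every culture, but the samples of these times overlapped. Normalized T>C reads were 86.5, 237 and 80.7 at 0h, 68.8, 191 and 195 at 3h and 157, 290 and 433 at 24h, with the cultures in the order used above. The 24h and 0h samples overlapped, since S9CC47_R5 at 0h lay above S9CC13_R6 at 24h. Within cultures the log2 ratio of 24h to 0h was 0.86, 0.29 and 2.42, so that S9CC47_R6 moved most. The fit gave 0.72 ± 0.219 (SE) at 24h (DESeq2 adjusted p = 0.0324), and 0.64 ± 0.169 in total reads (adjusted p = 0.00308). With the culture as a replicate block the log2 fold changes were 1.13 and 1.14 and the calls were lost (adjusted p = 0.165 and 0.133). They were also lost with no surrogate variable (1.30 and 1.33, adjusted p = 0.268 and 0.242) and without any of the 3 cultures. Without S9CC13_R6 the fitted value in total reads was -0.07. The cultures left in that fit, S9CC47_R5 and S9CC47_R6, were both higher at 24h in total reads (log2 ratios 0.27 and 2.43). Why the fitted value differed was not tested.

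At 3h SNAI1 moved in different directions. T>C reads were lower than at 0h in S9CC13_R6 (log2 ratio -0.33) and S9CC47_R5 (-0.31) and higher in S9CC47_R6 (1.27). The fitted value of 0.44 ± 0.216 (SE) at 3h thus had the sign of 1 of 3 cultures, and it did not pass the test (DESeq2 adjusted p = 0.660). Total reads were 103, 322 and 108 at 0h, 60.9, 240 and 258 at 3h and 197, 388 and 585 at 24h, with the same division between cultures.

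SNAI2 (also known as Slug), long used as a marker of crest cells, fell in total reads at 3h and rose between 3h and 24h. Normalized total reads were 256, 259 and 298 at 0h, 170, 171 and 221 at 3h and 335, 240 and 330 at 24h. Each culture was lower at 3h than at 0h and at 24h. The fall at 3h was -0.50 ± 0.160 on the log2 scale (SE, DESeq2 adjusted p = 0.0937), and 24h lay 0.56 ± 0.177 above 3h (adjusted p = 0.0438), with a value of 0.06 ± 0.163 for 24h against 0h (adjusted p = 0.871). With TWIST2, SNAI2 made 2 of 6 genes called in total reads at 3h, where 1.89% of tested genes were called, and it was the one that fell. The call at 3h was lost with the replicate block (log2 -0.54, adjusted p = 0.211), with no surrogate variable (-0.54, adjusted p = 0.228), in the 6 samples alone (-0.49, adjusted p = 0.410) and without any culture. The call between 3h and 24h was lost in the 6 samples alone (0.56, adjusted p = 0.196) and without any culture (0.40 to 0.96).

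The T>C reads of SNAI2 had the same shape with wider errors. They were 144, 163 and 171 at 0h, 101, 86.6 and 144 at 3h and 216, 148 and 199 at 24h. All 3 cultures went down and then up. Neither the value at 3h (log2 -0.50 ± 0.204 SE, DESeq2 adjusted p = 0.408) nor that of 24h against 3h (0.61 ± 0.228, adjusted p = 0.279) passed the test, although the latter did with the replicate block (0.78, adjusted p = 0.0208). SNAI2 was counted with 76 to 269 T>C reads a sample.

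ZEB1 and ZEB2, the large zinc-finger and homeodomain repressors, were not called at any time. Normalized T>C reads of ZEB1 were 1426, 994 and 1270 at 0h, 1405, 1181 and 1189 at 3h and 1287, 1151 and 1025 at 24h. The samples of the 3 times overlapped, and the cultures went different ways. The log2 fold change was -0.01 ± 0.0991 (SE) at 3h and 0.02 ± 0.103 at 24h (DESeq2 adjusted p = 0.998 and 0.974), values that changed sign between fits. For ZEB2 the T>C reads were 259, 265 and 259 at 0h, 274, 271 and 247 at 3h and 310, 241 and 236 at 24h. Its 0h samples were close together and its 24h samples lay on both sides of them, with log2 fold changes of -0.01 ± 0.158 at 3h and 0.05 ± 0.164 at 24h (adjusted p = 0.998 and 0.946).

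Neither ZEB gene was called in total reads. ZEB1 had 3253, 2380 and 2870 normalized total reads at 0h, 3445, 2760 and 2939 at 3h and 2992, 2643 and 2628 at 24h. ZEB2 had 587, 503 and 531 at 0h, 645, 494 and 524 at 3h and 556, 458 and 470 at 24h. The times overlapped for both genes, and S9CC13_R6 was the highest culture at each of them. Within cultures ZEB1 was higher at 3h than at 0h in 3 of 3, and lower at 24h than at 3h in 3 of 3. ZEB2 was lower at 24h than at 0h in 3 of 3. How many of all tested genes kept 1 direction in this way was not counted. At 24h the log2 fold changes were 0.04 ± 0.0818 (SE) for ZEB1 and -0.05 ± 0.122 for ZEB2 (DESeq2 adjusted p = 0.814 and 0.851). That these p-values miss the threshold does not show that the ZEB genes stayed the same, and the SEs give the size of change that could go unseen.

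**Figure D3:**
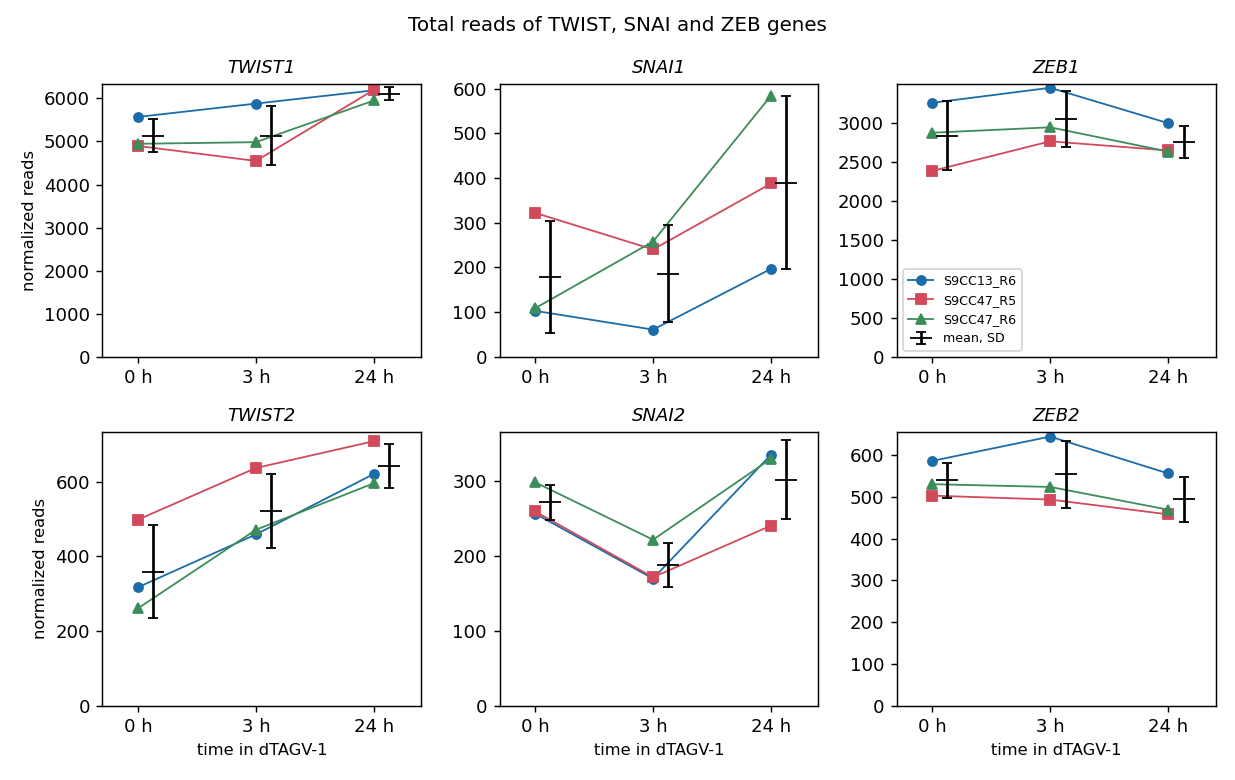
Normalized total reads (y axis, from 0) of the 6 genes against time in dTAGV-1 (x axis), drawn as lines for the 3 cultures with the mean and SD in black. SNAI2 was lower in each culture at 3h, TWIST2 was higher in each culture at 3h and 24h, and SNAI1 in S9CC47_R6 went from 108 at 0h to 585 at 24h.

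Unconverted reads, total minus T>C reads, hold RNA made before the label and new RNA whose read carries no conversion. How much was of each kind was not measured. At 24h 2 of the 6 genes were called in them, TWIST2 (log2 0.81 ± 0.166 SE, DESeq2 adjusted p = 5.53e-05) and TWIST1 (0.21 ± 0.0834, adjusted p = 0.0955), where 12.1% of tested genes were called. The TWIST1 call was lost with the replicate block (0.12, adjusted p = 0.518). TWIST1 was also called between 3h and 24h (0.26 ± 0.0886 SE, adjusted p = 0.0895), where 4.59% of tested genes were called, and with the block this call was lost (0.13, adjusted p = 0.513) and SNAI1 was called instead (1.24, adjusted p = 0.0873). At 3h 0 of the 6 were called, against 1.10% of tested genes, and 1 of them, TWIST2, had an unadjusted p under 0.05 (log2 0.51 ± 0.160, adjusted p = 0.120). No other tool was run on unconverted reads.

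The share of a gene's reads with a T>C conversion sets new RNA against all RNA of that gene. At 0h the share was 78.4% ± 2.84 (SD, n = 3) for SNAI1, 59.9% ± 6.37 for SNAI2, 49.5% ± 6.51 for ZEB2, 43.9% ± 1.30 for ZEB1, 38.3% ± 3.59 for TWIST1 and 34.5% ± 2.44 for TWIST2. All 6 were above the median of 25.3% over the 7797 genes with at least 200 total reads in each 0h sample. Only 14 of those genes had a higher share than SNAI1, which itself fell below the 200 reads in 2 of the 3 samples, and SNAI2 lay above 96.6% of them. The 2 SNAI genes thus had the highest shares of the 6, while TWIST2 lay above 68.7%, TWIST1 above 75.3%, ZEB1 above 83.3% and ZEB2 above 89.5%. The range of ZEB2 at 0h (42.9% to 55.9%) overlapped with those of SNAI2 (54.3% to 66.8%) and ZEB1 (42.5% to 45.0%). Those of TWIST1 (35.2% to 42.2%) and TWIST2 (32.5% to 37.2%) overlapped as well, so the order within these groups was within the spread. How many T positions each counted 3′ end holds also sets the share, and its part in the order was not tested.

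**Figure D4:**
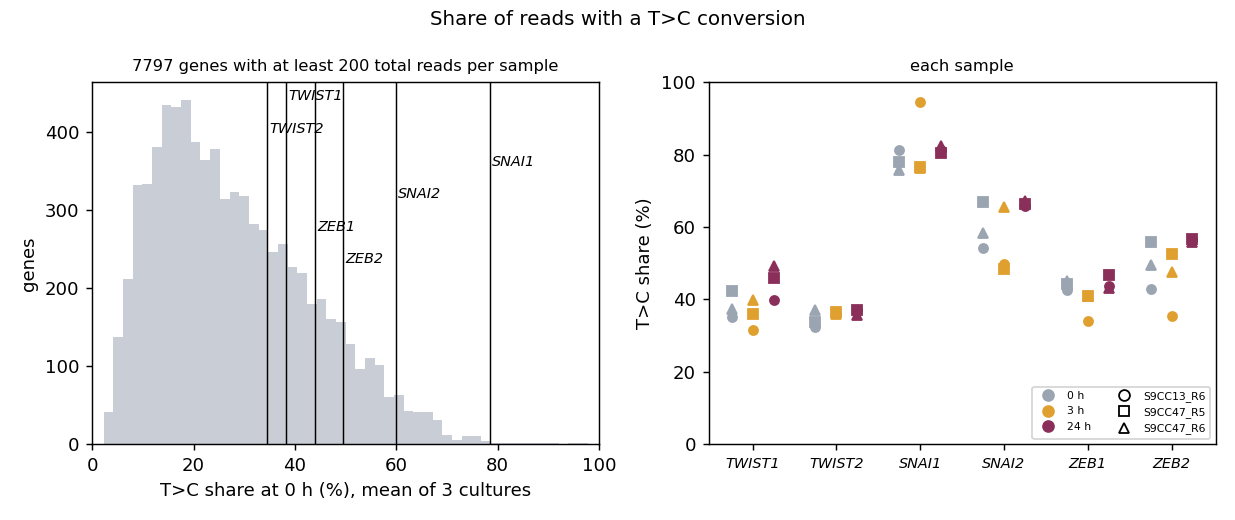
Left, the T>C share at 0h (x axis, percent, mean of 3 cultures) of 7797 genes as a histogram (y axis, genes) with the 6 genes as lines. Right, the share (y axis, percent) of each of the 6 genes (x axis) in every sample, coloured by time with a symbol for each culture. SNAI1 and SNAI2 lay in the upper tail, and the highest single share, 94.5%, was that of SNAI1 in S9CC13_R6 at 3h.

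Changes of share with time in dTAGV-1 were tested with the exact permutation test, which cannot give a p under 0.1 for 3 against 3 samples. In SNAI1 the shares at 0h were 81.4% in S9CC13_R6 (Wilson 95% interval 72.7% to 87.7%), 78.1% in S9CC47_R5 (72.6% to 82.8%) and 75.7% in S9CC47_R6 (68.0% to 82.1%), intervals that cover counting error only. The highest share of any sample, 94.5% (85.1% to 98.1%), was that of SNAI1 in S9CC13_R6 at 3h and came from 52 of 55 reads. ZEB1 had 42.5%, 44.3% and 45.0% at 0h and 34.2%, 41.1% and 40.8% at 3h, lower in 3 of 3 cultures by a mean of 5.25 points (SD 2.70). For ZEB1 at 3h the two-sided exact permutation test gave p = 0.1, the smallest it can give here. After Benjamini-Hochberg adjustment over 12 comparisons this was 0.6. How many of all genes had a share as clearly lower at 3h was not counted. TWIST1 had a share 6.74 points higher at 24h (SD 4.47), in 3 of 3 cultures (exact permutation p = 0.2, adjusted 0.6). The share of ZEB2 differed from 0h by -4.15 points at 3h (SD 2.78), lower in 3 of 3 cultures (exact permutation p = 0.6, adjusted 0.72), and 6.95 points higher at 24h (SD 6.63), also in 3 of 3 (p = 0.2, adjusted 0.6). The T>C share of whole libraries moved as well, between 15.9% in S9CC13_R6 at 3h and 21.3% in S9CC47_R6 at 24h, and once divided by it the ZEB1 share at 3h was lower in only 2 of 3 cultures, the ZEB2 share was lower in 2 of 3 at 3h and higher in 1 of 3 at 24h, and the TWIST1 share at 24h was higher in 3 of 3.

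The 9 samples also allow the cultures to be compared, with the times as a covariate, although the 3 samples of a culture are not separate cultures. In total reads 1 of the 6 genes, TWIST2, was called between S9CC47_R5 and S9CC47_R6, the same clone in the 2 batches. TWIST2 was higher in S9CC47_R5 by 0.53 ± 0.156 on the log2 scale (SE, DESeq2 adjusted p = 0.0463), where 1.65% of tested genes were called. The call was lost by edgeR (0.53, adjusted p = 0.158) and when any 1 of the times was left out (0.34 to 0.68). In T>C reads the same comparison called 0 of the 6 against 0.690% of tested genes, with TWIST2 at an unadjusted p under 0.05 (log2 0.53 ± 0.187, adjusted p = 0.295) and 0 calls by edgeR. Between the 2 clones within batch R6, SNAI1 was lower in S9CC13_R6 by the widest margin of the 6, with log2 values of -1.05 ± 0.468 in T>C and -1.32 ± 0.506 in total reads (adjusted p = 0.440 and 0.161). There DESeq2 called 0 of the 6 in either measure, against 1.32% and 3.38% of tested genes, 2 genes in T>C reads and 1 in total reads had an unadjusted p under 0.05, and edgeR called 1 in T>C reads, SNAI1, and 0 in total reads. In unconverted reads DESeq2 did call SNAI1 lower in S9CC13_R6 (log2 -1.83 ± 0.483 SE, adjusted p = 0.0161), the 1 gene of the 6, where 2.69% of tested genes were called. Between the batches 0 of the 6 were called in unconverted reads, against 1.50% of tested genes, with TWIST2 at an unadjusted p under 0.05 (log2 0.53 ± 0.180 SE, DESeq2 adjusted p = 0.164).

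The partners of the TWIST proteins were measured on the same scale. Of 12 bHLH partners and ID inhibitors 9 were tested in T>C reads, and at 24h 3 rose and 1 fell, where 4.98% of all tested genes were called. The 3 that rose were ID1 (log2 1.14 ± 0.274 SE, DESeq2 adjusted p = 0.00196), ID2 (1.10 ± 0.238, adjusted p = 0.000319) and ID3 (0.51 ± 0.117, adjusted p = 0.000987), the inhibitors that hold E proteins away from TWIST. The E protein TCF4 fell by 0.25 on the log2 scale (SE 0.0743, adjusted p = 0.0265), and TCF3 (0.17 ± 0.115) and TCF12 (0.09 ± 0.0843) did not pass the test. The median over the 9 was 0.30. With the replicate block the calls of ID3 and TCF4 were lost (adjusted p = 0.151 and 0.143) and those of ID1 and ID2 were not. Without S9CC13_R6 no gene of the list was called at 24h, and without S9CC47_R6 only ID2 was. In total reads, where 15.0% of tested genes were called, 5 of 8 were called at 24h, ID1, ID2, ID3 and ID4 higher and TCF4 lower, of which ID1 and ID2 were called with the block and 0 without S9CC13_R6. At 3h 0 of the 9 were called in T>C reads by DESeq2 or edgeR, and 0 had an unadjusted p under 0.05. In total reads at 3h both tools called 0 of 8, with 2 at an unadjusted p under 0.05, ID4 and TCF15.

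No regulator of the SNAI and ZEB proteins on the lists passed the test in new RNA. Of 14 corepressor genes, among them CTBP1, KDM1A, HDAC1 and EZH2, DESeq2 and edgeR called 0 in T>C reads at either time, and 1 at each time had an unadjusted p under 0.05. Of 12 genes for protein stability, among them GSK3B, BTRC and FBXL14, both tools called 0 at either time, with 2 at 24h and 1 at 3h at an unadjusted p under 0.05. In total reads at 24h CTBP1 rose (0.35 ± 0.118 SE, DESeq2 adjusted p = 0.0366), SMARCA4 fell by 0.17 (SE 0.0689, adjusted p = 0.0911) and the F-box gene FBXW7 fell by 0.24 (SE 0.0881, adjusted p = 0.0608), where 15.0% of tested genes were called. Without S9CC13_R6 none of these 3 was called, and without either other culture only CTBP1 was. The family relatives SNAI3, SCRT1 and SCRT2 were under the filter on low counts.

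TGF-beta signalling, a known inducer of these factors, was covered by 12 genes, all tested. At 24h 3 rose in T>C reads, against 4.98% of all tested genes called, SMAD7 (1.34 ± 0.470 SE, DESeq2 adjusted p = 0.0914), SKIL (0.57 ± 0.181, adjusted p = 0.0459) and SKI (0.52 ± 0.139, adjusted p = 0.00976), all 3 of which encode inhibitors of SMAD signalling. In total reads 5 rose and 1 fell at 24h, where 15.0% of tested genes were called. Besides SMAD7, SKIL and SKI, the ligand gene TGFB1 (1.78 ± 0.511 SE, DESeq2 adjusted p = 0.00830) and the receptor gene TGFBR1 (0.24 ± 0.0998, adjusted p = 0.0970) rose, and SMAD3, which carries the signal to the nucleus, fell by 0.29 (SE 0.0944, adjusted p = 0.0287). The block called all 6 and a fit without any 1 of the cultures called 0. In T>C reads the median over the 12 was 0.03, and the 3 calls were lost without any 1 of the cultures. SMAD7 was at a low level, where its normalized T>C reads went from 15.0 ± 3.11 to 40.7 ± 9.44 (SD, n = 3) in 24h. At 3h 0 of the 12 were called in T>C reads by DESeq2 or edgeR, with 3 at an unadjusted p under 0.05. In total reads at 3h DESeq2 called 1, SKI, which was higher, where 1.89% of tested genes were called, and edgeR called 0.

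Most epithelial targets of these factors were too low to test, and mesenchymal genes went both ways. Of 30 epithelial genes 24 were under the filter, CDH1 among them, which had at most 0.0518 total CPM in any library. Of the 6 tested, DESeq2 called 0 in T>C reads at either time, and the P-cadherin gene CDH3 had the one unadjusted p under 0.05, at 24h (log2 -0.99 ± 0.361 SE, adjusted p = 0.115), where edgeR called 1 gene, CDH3, and at 3h edgeR called 0. In total reads CDH3 fell by 0.97 at 24h (SE 0.203, adjusted p = 7.51e-05), a call lost without S9CC47_R5 or S9CC47_R6. Among 24 tested mesenchymal genes 4 rose and 2 fell in T>C reads at 24h, against 4.98% of all tested genes called, with a median of 0.06. In total reads 6 rose and 4 fell of 23, where 15.0% of tested genes were called. In T>C reads the collagen genes COL1A1 (1.11 ± 0.344 SE, DESeq2 adjusted p = 0.0378) and COL1A2 (0.52 ± 0.118, adjusted p = 0.000652) rose. The growth factor receptor gene PDGFRB (0.52 ± 0.124, adjusted p = 0.00192) and the vimentin gene VIM (0.29 ± 0.0940, adjusted p = 0.0464) also rose in T>C reads.

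Of the 2 mesenchymal genes that fell in T>C reads at 24h, the matrix gene TGFBI stood at -0.95 ± 0.111 on the log2 scale (SE, DESeq2 adjusted p = 9.26e-15). The actin-binding gene TAGLN stood at -1.34 ± 0.444 (adjusted p = 0.0617), and the TAGLN call was lost with the replicate block (adjusted p = 0.242). At 3h PDGFRB had risen (0.65 ± 0.119, adjusted p = 1.27e-05) and TGFBI had fallen (-0.67 ± 0.106, adjusted p = 1.03e-07), each in the same direction as at 24h, with the 0h samples shared. The N-cadherin gene CDH2, which takes the place of CDH1 in mesenchymal cells, had -0.38 ± 0.147 at 24h (adjusted p = 0.154), which passed with the replicate block (-0.55, adjusted p = 0.0152), as did the matrix gene SPARC (0.68, adjusted p = 0.0363, against 0.55 and 0.115 without it). The fibronectin gene FN1 had 0.02 ± 0.174 (adjusted p = 0.978). Of the 24 genes, 3 were called at 24h without S9CC47_R5 and 1 without either of the other cultures.

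**Figure D5:**
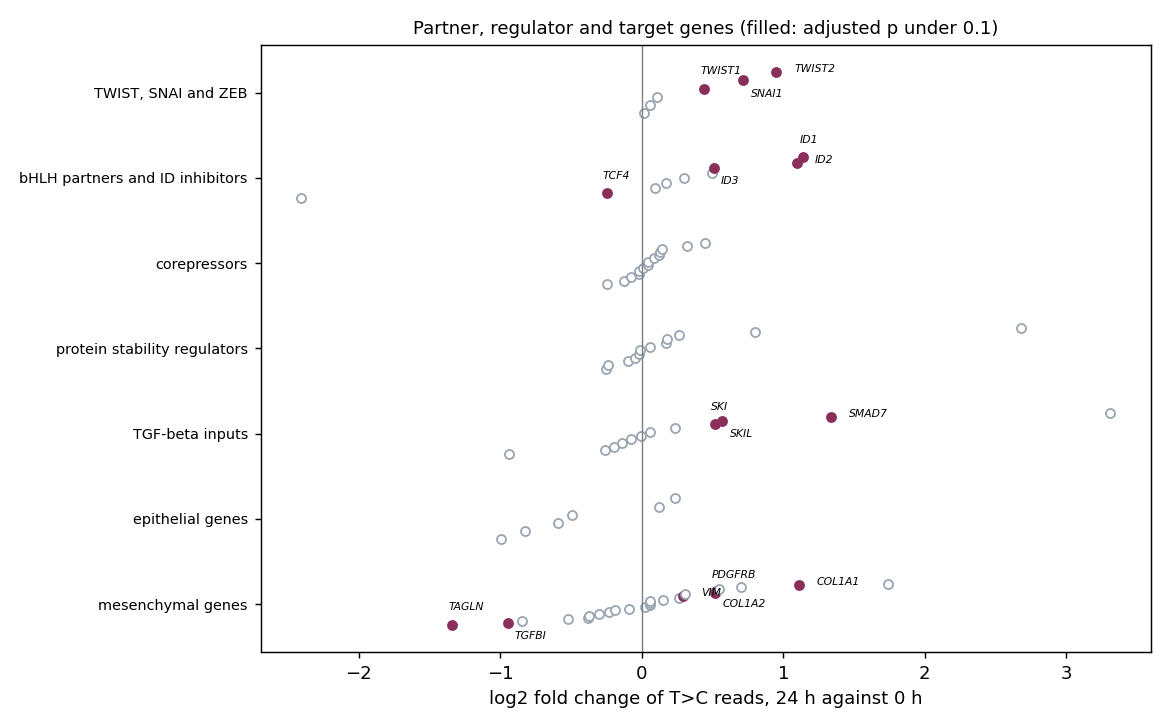
Log2 fold change of T>C reads at 24h against 0h (x axis) for the tested genes of each list (y axis, 1 point a gene, filled and named at a DESeq2 adjusted p under 0.1). TWIST1, TWIST2 and SNAI1 lie to the right of 0, as do ID1, ID2 and ID3 of the bHLH list, and the corepressor, stability and epithelial lists hold no filled point.

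Across the 9 samples the 6 genes did not follow each other closely in T>C reads. The Pearson correlation of log2 levels was 0.44 between TWIST1 and TWIST2, 0.32 between SNAI1 and SNAI2 and 0.42 between ZEB1 and ZEB2, and the strongest was -0.87 between SNAI1 and ZEB1. Among 8676 genes whose normalized T>C reads averaged 50 or more, the profiles most like that of TWIST2 were those of CXXC5 (r = 0.98), ZBTB46 (0.97) and COL6A1 (0.94), and those most like TWIST1 were ZC3H11A (0.95), RBMS1 (0.93) and BACH1 (0.93). SNAI1 was nearest to ELP4 (0.97), MYL12A (0.97) and LSM8 (0.96), and SNAI2 to AGFG1 (0.96), DYRK4 (0.96) and TCAF1 (0.94). ZEB1 was nearest to NIN (0.97), VPS51 (0.95) and NSD1 (0.95), and ZEB2, with the lowest values of the 6, to SUPT5H (0.90), LPIN2 (0.90) and GSPT2 (0.89). These values describe 9 samples that share cultures, libraries and depth, and with so many genes searched some high values are found for any profile.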

How the data were processed

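SLAM-seq libraries (QuantSeq 3′ FWD) were made from 9 samples, 3 cultures at 3 times. The authors trimmed read 1, mapped and counted it with slamdunk (hg38 per the labels), and deposited raw read counts per gene, 1 table of T>C reads and 1 of total reads. No molecular identifiers were stated. The counted 3′ regions and the strand setting are not given in the sources used here.

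Both tables listed 18970 genes. Types and coordinates came from GENCODE v44 by symbol (18451 matched directly, 11 by a RefSeq symbol, 390 by a RefSeq synonym, 118 not), and 18769 genes were protein-coding. As in the study's methods, raw counts of all 9 samples entered DESeq2 (1.42.0, R 4.3.3) with time, batch and 1 surrogate variable (svaseq, sva 3.50.0, time protected). Genes with at least 1 CPM (reads scaled to the same library size) in at least 3 samples were tested, without independent filtering, and called at a Benjamini-Hochberg adjusted p under 0.1 over all genes tested. Culture contrasts used culture and time. Unconverted reads are total minus T>C reads. The steps were tested on simulated data. Cultures are separate cultures by clone and batch. In the comparisons of times, p-values rest on the spread of the 9 samples left after time, batch and the surrogate variable, without pairing by culture. In the culture contrasts they rest on the spread left after time and culture.

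Titles pair samples of a culture across times. Deviations from the group means correlated by 0.131 in T>C reads (0.0169 to 0.286 over 9 pairs) and by 0.273 in total reads (-0.0566 to 0.606). Alternatives were the replicate block, edgeR (4.0.16), TMM factors, no surrogate variable, no filter, the 6 samples compared, size factors from total reads, adjusted p under 0.05 and each culture or time left out. The genes and lists were chosen with earlier results of these data known. The 6 genes are named whatever their values, and so are CDH1, CDH2, VIM and FN1. From each list the called genes of T>C reads are named, at most the 3 largest changes in each direction and time, and for each of the 6 genes the 3 most similar profiles. TCF3, TCF12, CDH3, SPARC and the genes named from total reads were added after their values were seen.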

Additional observations from a re-analysis of the deposited data

Results flagged for a closer look

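TWIST1 differed between 3h and 24h in dTAGV-1 by a test of the difference itself, by 0.44 on the log2 scale in T>C reads and 0.34 in total reads (DESeq2 adjusted p = 0.0137 and 0.00731). It was higher at 24h in 3 of 3 cultures in both. SNAI2 differed between the same times by 0.56 in total reads (adjusted p = 0.0438), again higher at 24h in 3 of 3 cultures.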

How the results depend on the processing

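Of the 91 recomputed counts of the 6 genes called, 56 stayed within 1.5 times the reported count, 30 were lower and 5 higher. The causes of these differences were not tested. The fits that leave out a culture or compare 6 samples also hold fewer samples. Taking TMM factors in DESeq2, or the size factors of total reads, changed no count of the 6 genes by over 1.5 times.

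With the replicate block, T>C reads at 24h against 3h called 2 genes (TWIST1 and SNAI2) in place of 1, and total reads at 3h called 1 (TWIST2) in place of 2. The block also took the SNAI1 calls at 24h in T>C reads (log2 1.13, adjusted p = 0.165) and total reads (1.14, adjusted p = 0.133) and changed no other call of the 6 genes in T>C or total reads. It turned the sign of values in T>C reads for ZEB1 (-0.088 at 24h against 0h, -0.12 at 24h against 3h, 0.037 at 3h) and ZEB2 (-0.0014, -0.016 and 0.015), and in total reads for ZEB1 at 24h (-0.034), ZEB2 at 3h (0.031) and SNAI1 at 3h (-0.049, from 0.31 ± 0.168 SE). With no surrogate variable, T>C reads at 24h against 3h called 2 genes, and total reads called 1 in place of 3 at 24h (TWIST2), 1 in place of 2 at 3h (TWIST2) and 1 in place of 2 at 24h against 3h (SNAI2). There ZEB1 (-0.082 at 24h, -0.12 at 24h against 3h, 0.040 at 3h) and ZEB2 (-0.012 at 24h against 3h, 0.018 at 3h) turned in T>C reads, and ZEB1 at 24h (-0.033) and ZEB2 at 3h (0.036) in total reads.

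In the 6 samples compared, T>C reads at 3h called 0, total reads called 1 at 3h and 1 at 24h against 3h, and ZEB1 (-0.091) and ZEB2 (-0.0022) at 24h and TWIST1 at 3h (-0.0065) turned in T>C reads. The size factors of total reads turned TWIST1 at 3h (-0.072). Total reads at 3h also called 1 with no filter on low counts and 1 at an adjusted p under 0.05. By edgeR the clones differed in 1 gene in T>C reads (SNAI1) and the batches in 0 in total reads.

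Leaving out 1 culture at a time gave 0 to 2 called genes at 24h in T>C reads, with 0 for 3h and for 24h against 3h, and 0 to 1 in total reads at each comparison of times. Leaving out 1 time gave 0 to 1 between the clones in both measures and 0 between the batches in total reads. Within cultures, total reads of SNAI1 were higher at 24h than at 0h and at 3h in 3 of 3. T>C and total reads of TWIST2 were higher, and those of ZEB1 lower, at 24h than at 3h in 3 of 3. Total reads of ZEB2 were lower at 24h than at 0h in 3 of 3. The fits without 1 culture or 1 time can differ in sign from these directions. They have few samples and say little of stability. For T>C reads such ranges crossed 0 at 24h for SNAI2 (-0.16 to 0.25), ZEB1 (-0.075 to 0.12) and ZEB2 (-0.11 to 0.19), at 3h for TWIST1 (-0.039 to 0.12), SNAI1 (-0.34 to 0.56), ZEB1 (-0.078 to 0.11) and ZEB2 (-0.011 to 0.051), at 24h against 3h for TWIST2 (-0.0049 to 0.34), ZEB1 (-0.087 to 0.028) and ZEB2 (-0.10 to 0.20), and between batches for TWIST1 (-0.095 to 0.049), SNAI1 (-0.30 to 0.70) and ZEB1 (-0.17 to 0.081). In total reads they did at 24h for SNAI1 (-0.067 to 1.00), SNAI2 (-0.14 to 0.37), ZEB1 (-0.077 to 0.18) and ZEB2 (-0.14 to 0.050), at 3h for TWIST1 (-0.045 to 0.040), SNAI1 (-0.57 to 0.29) and ZEB2 (-0.018 to 0.053), at 24h against 3h for TWIST2 (-0.13 to 0.46), SNAI1 (-0.27 to 1.57) and ZEB1 (-0.22 to 0.031), and between batches for TWIST1 (-0.071 to 0.023) and SNAI1 (-0.34 to 0.63).

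For the gene lists in T>C reads, alternatives chosen after seeing the data gave 2 bHLH genes (ID1 and ID2) in place of 4 at 24h with the replicate block and with no surrogate variable, 1 corepressor gene (SMARCA4) with the block, and 1 epithelial gene (CDH3) with the block, with no surrogate variable and by edgeR. Without 1 culture the counts at 24h were 0 to 2 for the bHLH list, 0 to 1 for corepressors, 0 for the TGF-beta list and 1 to 3 for the mesenchymal list, and at 3h they were 0 to 1 for the bHLH list and 0 to 2 for the mesenchymal list. In total reads at 24h the bHLH list had 2 in place of 5 with the block and 3 with no surrogate variable, the corepressors 1 in place of 2 by edgeR and with no surrogate variable, the stability list 2 in place of 1 with the block (SIAH1 added), and the epithelial list 2 in place of 1 with the block, by edgeR and with no surrogate variable (KRT18 added). Without 1 culture these counts were 0 to 3 for the bHLH list, 0 to 1 for corepressors, 0 for the stability and TGF-beta lists, 0 to 1 for the epithelial list and 1 to 6 for the mesenchymal list.

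Divided by the library share, the T>C share changes of TWIST1 at 3h (0.00977), TWIST2 at 24h (-0.0163), SNAI1 at 24h (-0.131) and ZEB1 at 24h (-0.118) turned sign. Depth limits SNAI1 and SNAI2 most, with as few as 52 and 76 T>C reads in a sample.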
